A study of Drosophila melanogaster with 6 samples.

Results

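The 6 fat body libraries of the series could be divided by the level of transcripts of the male germline, and the division cut across the genotypes. Libraries AKH replicate 1, AKH replicate 2 and control replicate 2 were rich in these transcripts and are called the high libraries. Libraries AKH replicate 3, control replicate 1 and control replicate 3 held much less and are called the low libraries. The 3 high and the 3 low libraries make up all 6 libraries of the series. They were chosen by their measured levels of testis transcripts in these same counts, with betaTub85D as the marker, so every difference between high and low libraries is given as a description, without a test. RNA was sequenced from fat bodies dissected from Drosophila melanogaster larvae late in the 3rd instar, in 3 libraries per genotype. The AKH larvae carried UAS-AKH/+ and R4-Gal4/+, and so overexpressed adipokinetic hormone in the fat body, where the R4 promoter drives Gal4. The control larvae carried R4-Gal4/+ alone. The strain label of all 6 is w1118, and the driver was thus present in both genotypes. The labels do not say how many animals went into a library, their sex, or whether the libraries came from separate cultures, so the p-values below stand only for the variation among these libraries, and that may be technical.

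In the Drosophila larva each gonad lies embedded in a lobe of the fat body. The testis is much larger than the ovary at the end of larval life and is filled with spermatogonia and spermatocytes. Spermatocytes switch on a large transcription programme that depends on the meiotic arrest genes, a testis form of the Myb-MuvB complex together with testis forms of the TBP-associated factors. Many targets are testis-only copies of genes that other tissues express in a general form, among them tubulins, proteasome subunits and mitochondrial enzymes.

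Each library held between 29803513 and 33150911 counts, and 11082 of the 15796 genes in the table passed the filter on low counts. Levels are given as CPM, counts relative to a library size scaled by the TMM method, and 3 counts corresponded to 0.0904 to 0.110 CPM. The hormone gene checked the genotype labels. Akh had 2085, 1631 and 1845 CPM in AKH replicates 1 to 3, against 2.26, 2.44 and 1.83 CPM in control replicates 1 to 3. Its log2 difference of 9.70 ± 0.214 (SE) had an adjusted p of 7.67e-05 in edgeR's quasi-likelihood test. The fat body label was checked against its defining markers. The storage protein gene Lsp2 had 80020, 72180 and 74030 CPM in the high libraries and 84210, 66630 and 98360 CPM in the low ones. In the principal component analysis the first component held 48.2% of the variance and separated AKH from control libraries. The second held 31.9% and separated high from low libraries. Pairs of libraries within a genotype differed by 36.8 to 88.5 times the sampling noise (chi-square per degree of freedom), so none was a repeat deposit of another.

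A gene was said to follow the division when its 3 high libraries did not overlap its 3 low libraries and its fitted log2 difference, with genotype in the model, was at least 1 in size. By this rule 1209 of the 11082 genes were higher in the high libraries, which is 10.9% of all genes tested. In the opposite direction 21 genes were lower, or 0.189%. The median log2 difference of the 1209 genes was 2.48, and the median over all genes tested was -0.02. In 870 of the 1209 genes every high library had at least 2 times the level of every low library. Just inside the threshold lay CG2444 at 1.00, CG4741 at 1.01 and CG7730 at 1.01 on the log2 scale, and just outside it lay CG17129 at 0.99, CG14693 at 0.99 and CG34027 at 0.99. With log2(RPKM + 1) in place of counts 312 genes were higher, since that scale shrinks the differences of rare genes. The summed level of the 1209 genes was 2927, 3094 and 3167 CPM in AKH replicate 1, AKH replicate 2 and control replicate 2. It was 853.3, 906.3 and 961.3 CPM in AKH replicate 3, control replicate 1 and control replicate 3. As a share of all counts this came to 0.290% (95% exact binomial interval 0.289 to 0.292%), 0.335% and 0.344% in the high libraries, against 0.0807% (0.0797 to 0.0817%), 0.0939% and 0.0840% in the low ones. These intervals cover counting error only. The sums restate how the genes were picked. They show that the genes that follow the division were a small part of the RNA even where they were highest.

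The marker betaTub85D encodes the testis form of beta-tubulin that builds the meiotic spindle and the sperm tail. It had 8.45, 13.2 and 12.8 CPM in the high libraries and 1.15, 2.23 and 1.83 CPM in the low ones, from 278, 437 and 414 counts and from 33, 69 and 50 counts. The lowest high library stood well above the highest low library, and the fitted difference was 2.90 ± 0.252 (SE, log2). On the per-length scale of the deposited RPKM values its highest level was 7.75, in AKH replicate 2, where Lsp2 stood at 33910. In bulk RNA, more cells of a type and more RNA per cell cannot be told apart.

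The list of spermatocyte and sperm genes went with the marker. Of its 41 tested members 37 were higher in the high libraries and none was lower, with a median log2 difference of 2.58. This is 90.2%, against 10.9% over all genes tested. The loopin-1 and S-Lap genes encode leucyl aminopeptidase-like proteins that are major constituents of sperm. S-Lap1, the most abundant of them in CPM, had 16.4, 24.0 and 21.1 CPM in the high libraries, against 2.48, 2.91 and 2.78 CPM in the low ones. The 7 S-Lap genes measured lay between 2.95 and 3.37 on the log2 scale of the difference. The gene loopin-1 had 9.85, 16.1 and 17.7 CPM in the high libraries, against 1.15, 1.90 and 2.23 CPM in the low ones.

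The sperm chromatin gene Mst77F, whose protein is packed into the sperm nucleus, had 16.3, 14.8 and 12.9 CPM in the high libraries, against 3.87, 2.45 and 3.00 CPM in the low ones. The genes Mst84Db, Mst84Dc, Mst84Dd, Mst87F, Mst98Ca and Mst98Cb encode cysteine-rich proteins of the sperm tail, and all 6 followed the division with log2 differences between 2.25 and 2.85. The largest difference in the list was that of gudu, which is needed for male fertility. It had 1.37, 1.54 and 1.48 CPM in the high libraries, against 0.105, 0.0323 and 0.110 CPM in the low ones, a log2 difference of 4.09 ± 0.416 (SE). Hsp60B, a chaperonin needed for sperm individualization, differed by 3.55 and Mst33A by 3.29. The 4 exceptions were Mst36Fa (0.03), eIF4G2 (0.05), CycB3 (-0.11) and msb1l (0.003). Among these eIF4G2, a translation factor needed for male meiosis, had 37.2, 49.9 and 34.4 CPM in the high libraries and 39.2, 35.1 and 36.0 CPM in the low ones, and CycB3, a mitotic cyclin, stood between 12.0 and 15.8 CPM throughout. Both were expressed at a like level in all 6 libraries.

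**Figure D1:**
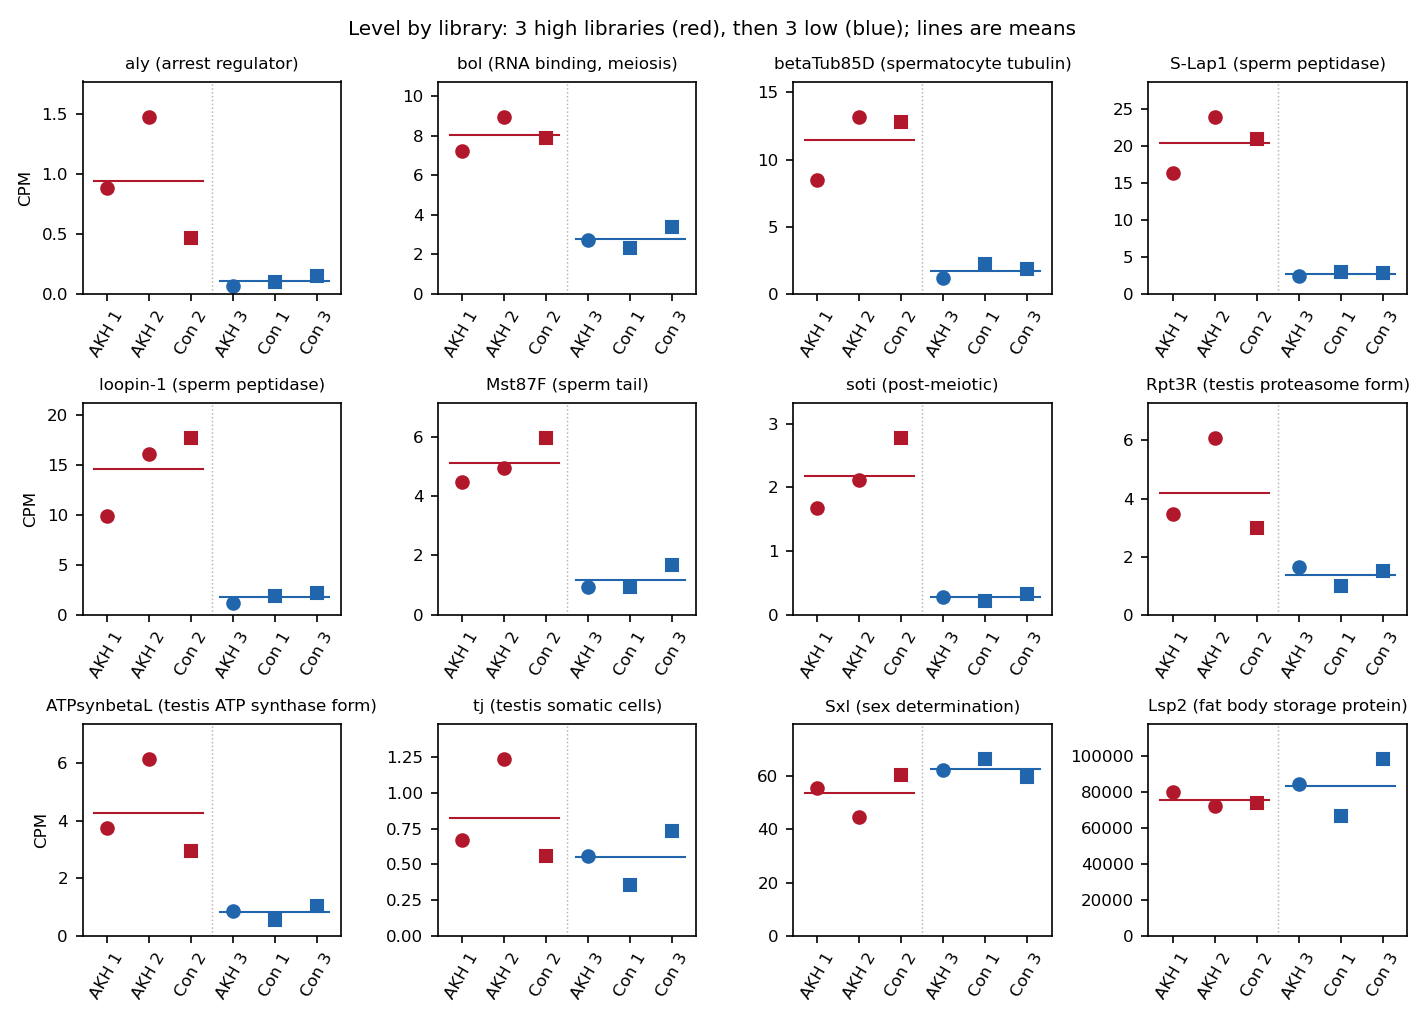
Level in CPM (linear axis from 0) of 12 genes in each library, with circles for AKH and squares for control libraries, red for the 3 high and blue for the 3 low libraries, and lines for the means. The 9 genes of the male germline lists and testis forms do not overlap between high and low libraries, as for betaTub85D with 8.45 to 13.2 against 1.15 to 2.23 CPM, while those of tj, Sxl and Lsp2 overlap.

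Meiotic arrest regulators control the spermatocyte programme itself. Of 15 tested members 9 followed the division and none was lower, with a median log2 difference of 1.52. The share was 60%, against 10.9% over all genes tested. The largest difference was that of aly, a testis subunit of the Myb-MuvB complex. It had 0.882, 1.48 and 0.463 CPM in the high libraries, against 0.0698, 0.0968 and 0.146 CPM in the low ones, a log2 difference of 2.79 ± 0.590 (SE). Its partner comr differed by 2.11. The TBP-associated factor genes can, sa and nht differed by 1.49, 2.02 and 1.90, and the further regulators wuc and kmg by 1.58 and 1.93. The most abundant follower was bol, an RNA-binding protein that promotes translation of the meiotic phosphatase gene twe. It had 7.24, 8.95 and 7.87 CPM in the high libraries, against 2.72, 2.32 and 3.36 CPM in the low ones. Rbp4, an RNA-binding repressor of translation in spermatocytes, differed by 1.81. Members that did not reach the threshold were topi (0.62), mia (0.31), achi (0.27), vis (0.93), mip40 (-0.10) and twe (0.80). Of these mip40 belongs to the Myb-MuvB complex of other tissues as well and was the most abundant of the list, at 17.3, 15.9 and 26.6 CPM in the high libraries and 17.8, 27.1 and 30.2 CPM in the low ones.

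The earliest stages showed less of the pattern. The list of germline stem cell and spermatogonium genes had a median of 0.58. Of its 8 tested genes 1 followed the division, or 12.5%, close to the 10.9% over all genes tested. It was bgcn, the partner of the differentiation factor bam, with 1.49, 2.02 and 0.864 CPM in the high libraries, against 0.558, 0.678 and 0.511 CPM in the low ones. The 8 genes averaged from 0.231 to 38.5 CPM. Over that range the share over all genes fell from 47.2% (under 0.5 CPM) to 0.157% (20 CPM or more), so 10.9% is a rough measure here. The bam gene itself differed by 1.37 on the log2 scale and overlapped, with 0.578, 1.09 and 0.216 CPM in the high libraries and 0.140, 0.0323 and 0.365 CPM in the low ones. The genes aub and AGO3, which act in the piRNA pathway of the germline, differed by 0.74 and 0.17, and mei-P26, a regulator of germ cell differentiation that is also expressed outside the gonad, by -0.33. All 3 overlapped between high and low libraries or differed by less than the threshold.

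Genes of the sperm flagellum and of the Y chromosome followed the division in part. Of 15 tested genes of axonemal dyneins and other flagellar parts 11 were higher and none was lower, with a median of 2.01. The share was 73.3%, against 10.9% over all genes tested. Tektin-A, a filament protein of the axoneme, differed by 3.25 and Dnali1, a light intermediate chain of axonemal dynein, by 3.18. Dnali1 had 0.730, 0.693 and 1.23 CPM in the high libraries, against 0.0698, 0.161 and 0.110 CPM in the low ones. The dynein heavy chain genes Dhc62B (0.01), Dhc93AB (-0.37) and Dhc36C (0.89) did not follow, and Dhc98D (2.30) did. The Sdic genes are near-identical copies and their counts are uncertain. Of the 6 Y-linked genes of the list found in the table only ARY, an aldehyde reductase gene, passed the filter on low counts. ARY had 9, 12 and 12 counts in the high libraries and 1, 2 and 2 counts in the low ones. The 6 Y-linked genes together had 11, 21 and 26 counts in the high libraries, against 2, 4 and 4 counts in the low ones, so that no library was without them.

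The cup and comet genes are known for transcripts that accumulate in spermatids after meiosis. Of 13 tested members 9 were higher and none was lower, with a median log2 difference of 2.59. The share was 69.2%, against 10.9% over all genes tested. Most of the 13 averaged under 1 CPM. At such levels more of all tested genes were higher, 47.2% under 0.5 CPM and 39.2% from 0.5 to 1 CPM. The comet gene schuy had 0.882, 1.30 and 1.79 CPM in the high libraries, against 0.0698, 0.0968 and 0.0730 CPM in the low ones, and its difference of 4.18 ± 0.384 (SE) was the largest of all male germline lists. The gene w-cup differed by 3.34 and soti, which limits caspase activity in spermatids, by 3.07. The exceptions were f-cup, m-cup, scpr-A and scpr-C, all between -0.002 and 0.28. Of these m-cup had 12.4, 14.0 and 14.8 CPM in the high libraries and 12.0, 11.0 and 11.1 CPM in the low ones. Over all male germline lists 111 names were found in the table, 93 passed the filter, and 68 of the 93, or 73.1%, followed the division. Of the 18 that did not pass, 10 had more counts over the high than over the low libraries and 6 had none anywhere.

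Testis copies of general enzymes were higher in the high libraries. Of 12 tested testis forms of proteasome subunits 11 were higher, with a median log2 difference of 2.62. This is 91.7%, against 10.9% over all genes tested. None of the 31 general proteasome subunits followed, and their median was -0.05. All of these but Prosalpha1 were abundant, and of all tested genes at 20 CPM or more 0.157% were higher. Summed, the testis forms had 15.3, 23.7 and 15.8 CPM in the high libraries, against 3.63, 3.74 and 5.004 CPM in the low ones. The general subunits had 2961, 2737 and 3002 CPM in the high libraries and 3070, 2918 and 3075 CPM in the low ones. The ATPase subunit Rpt3R had 3.47, 6.09 and 2.99 CPM in the high libraries, against 1.64, 1.00 and 1.497 CPM in the low ones. The exception was Prosbeta5R2, which differed by 3.18 but overlapped, at 0.456, 0.271 and 1.51 CPM in the high libraries and 0, 0.291 and 0.110 CPM in the low ones. Of 15 tested testis forms of respiratory chain and ATP synthase subunits 14 were higher, or 93.3%, with a median of 2.29. The most abundant was ATPsynbetaL, a copy of the catalytic beta subunit, with 3.74, 6.15 and 2.96 CPM in the high libraries, against 0.872, 0.549 and 1.02 CPM in the low ones. The cytochrome oxidase copy COX4L differed by 2.03, the succinate dehydrogenase copy SdhBL by 2.96, and UQCR-11L by 0.24, which made it the exception.

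None of the 9 tested genes of the somatic testis cells followed the division, too few genes to set apart from the 10.9% over all genes tested. The median log2 difference of these 9 was 0.19. They averaged from 0.431 to 87.0 CPM, and the share over all genes fell with level, from 47.2% under 0.5 CPM to 0.157% at 20 CPM or more. The transcription factor gene tj, which marks early somatic cyst cells, had 0.669, 1.24 and 0.556 CPM in the high libraries and 0.558, 0.355 and 0.730 CPM in the low ones. Abundant members such as Fas3, at 74.2 to 96.6 CPM, and zfh1, at 13.6 to 21.7 CPM, are also expressed in other tissues. The list of female germline and follicle cell genes had 2 followers among 7 tested members, orb (2.09) and BicC (3.04), or 28.6%. Both encode RNA regulators, and orb is also used in the testis. BicC had 0.882, 1.90 and 1.36 CPM in the high libraries, against 0.0698, 0.226 and 0.256 CPM in the low ones. The yolk protein gene Yp3, which is expressed under female control in the adult fat body, had 255.7, 57.5 and 249.0 CPM in the high libraries and 184.5, 674.0 and 486.3 CPM in the low ones, and overlapped.

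The sex determination and dosage compensation genes gave no follower among 14 tested, with a median of 0.05. All 14 averaged 4.63 CPM or more. Over all genes tested the share was 6.73% from 2 to 5 CPM, 0.896% from 5 to 20 CPM and 0.157% at 20 CPM or more. Having no follower is thus usual for so few genes at these levels. The noncoding RNA roX1, part of the male dosage compensation complex, had 168.3, 310.3 and 162.2 CPM in the high libraries and 221.5, 118.5 and 185.9 CPM in the low ones. Sxl, the female-determining switch gene, had 55.6, 44.9 and 60.6 CPM in the high libraries and 62.5, 66.5 and 59.7 CPM in the low ones. Neither separated the high from the low libraries. The counts do not resolve the sex-specific splice forms of Sxl, tra or dsx.

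Most genes of other tissues did not go with the division. Over 10 lists of cell division, fat body, salivary gland, muscle, cuticle, haemocyte, trachea, nervous system, Malpighian tubule and imaginal disc genes, none of 126 tested genes followed it, and the medians of the lists ran from -0.34 to 0.17. The most abundant members of each of these lists averaged over 5 CPM. Over all tested genes, 0.896% were higher in the high libraries from 5 to 20 CPM and 0.157% at 20 CPM or more. A count near 0 is thus usual for abundant genes. Midgut and ecdysone response genes are described apart below. The sums of the salivary gland and of the muscle list did not overlap between high and low libraries. Lack of overlap alone was common. Of the 11082 single genes tested, 1554 were higher and 675 lower in the high libraries without overlap, at any size of difference. The salivary glue protein genes and partners summed to 26390, 21800 and 26180 CPM in the high libraries, against 33770, 30380 and 28180 CPM in the low ones. The 10 tested genes of this list had log2 differences between -0.94 and -0.09. The glue gene Sgs1 had the largest, with 998.9, 1401 and 1931 CPM in the high libraries, against 3244, 2949 and 2338 CPM in the low ones. The muscle list summed to 398.4, 379.7 and 415.0 CPM in the high libraries, against 446.2, 429.2 and 444.6 CPM in the low ones, and its median log2 difference was -0.10.

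**Figure D2:**
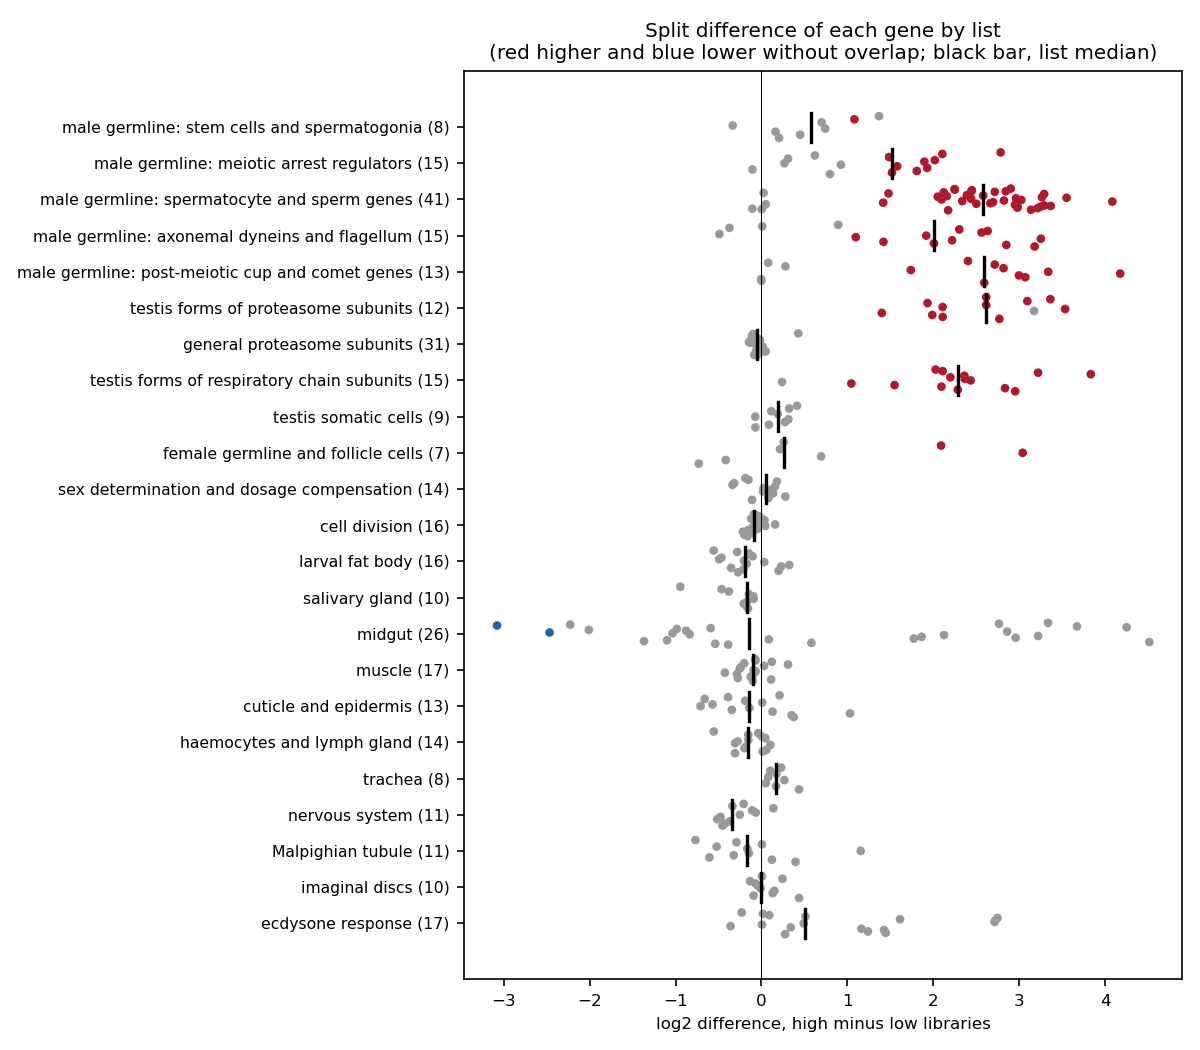
Fitted log2 difference of every tested gene, high minus low libraries, by gene list, with the number tested in brackets and black bars for list medians. Red and blue points are genes that follow the division in either direction. The medians of the spermatocyte and sperm, axonemal, cup and comet and both testis-form lists lie between 2.01 and 2.62, and those of the general proteasome and of the 10 tissue lists between -0.34 and 0.17.

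The genes that followed the division and averaged at least 5 CPM over the 6 libraries were few, 33 in all. Most of those with the largest differences are known or named for the testis: salto, S-Lap3, S-Lap2, loopin-1, S-Lap4, S-Lap8 and S-Lap7 ranged from 2.98 to 3.48 on the log2 scale. The gene salto had 288, 481 and 421 counts in the high libraries, against 25, 39 and 38 counts in the low ones. Also among the 10 largest was FBgn0038762, with no symbol in the tables used here, at 18.6, 29.9 and 23.8 CPM in the high libraries, against 2.27, 3.00 and 3.76 CPM in the low ones. Of the testis RNA regulators, fest had 10.6, 16.1 and 6.14 CPM in the high libraries, against 1.12, 1.07 and 2.45 CPM in the low ones. The double-stranded RNA-binding gene blanks, needed for sperm individualization, had 11.7, 16.4 and 5.15 CPM in the high libraries, against 2.86, 1.52 and 4.13 CPM in the low ones. The 6 followers at 20 CPM or more were CG2444, CG3829, Sid, galla-1, Ugt36D1 and CG7220. None of them was in the male germline lists. CG2444 had 912.9, 494.8 and 507.1 CPM in the high libraries, against 330.7, 216.1 and 320.2 CPM in the low ones. Sid had 83.8, 89.7 and 94.5 CPM in the high libraries, against 44.4, 50.3 and 24.9 CPM in the low ones.

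Part of the abundant followers rested on control replicate 2. In 7 of the 33 genes that library had over 1.5 times the level of both high AKH libraries, a count made after their values were seen. They were Drsl5, FBgn0010381, Obp83ef, FBgn0261548, Mmp1, CG3829 and CG7220. Drsl5, of the Drosomycin family of antimicrobial peptides, had 1.22, 4.28 and 45.7 CPM in AKH replicate 1, AKH replicate 2 and control replicate 2, against 0.244, 0.0968 and 0.183 CPM in the low libraries. Its log2 difference of 7.06 ± 1.02 (SE) was the largest of all followers and was carried mostly by 1481 counts in control replicate 2. The matrix metalloproteinase gene Mmp1 had 14.2, 16.6 and 32.9 CPM in the high libraries, against 10.3, 10.1 and 8.66 CPM in the low ones. In 5 of the 7 genes control replicate 1 was the highest of the low libraries.

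The 21 genes that were lower in the high libraries were mostly rare, 19 of them under 5 CPM. The other 2 were PGRP-SB1 and Dro, both genes of the immune response to bacteria. PGRP-SB1, a peptidoglycan recognition protein, had 0.760, 1.66 and 4.69 CPM in the high libraries, against 33.4, 4.81 and 28.5 CPM in the low ones, so that control replicates 1 and 2 were nearly equal. Dro, the antimicrobial peptide Drosocin, had 0.821, 0.392 and 6.42 CPM in the high libraries, against 7.81, 15.9 and 6.65 CPM in the low ones. Digestive serine protease genes Jon99Ci, Jon44E and Jon99Ciii were also among the 21, with Jon44E at 0.0304, 0 and 1.05 CPM in the high libraries, against 1.43, 4.07 and 5.22 CPM in the low ones. The number of genes in this direction was unstable: leaving out 1 library at a time gave between 23 and 104, with 104 without control replicate 2 and 90 without AKH replicate 3.

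Followers were concentrated among rare transcripts. Of genes with a mean under 0.5 CPM 47.2% were higher in the high libraries, and of genes from 0.5 to 1 CPM 39.2%. The share was 23.6% from 1 to 2 CPM, 6.73% from 2 to 5 CPM, 0.896% from 5 to 20 CPM and 0.157% at 20 CPM or more. A rare gene enters the table of tested genes more readily when 3 libraries hold it, so the share in the low bands is not independent of the difference. Followers had shorter transcripts, with a median gene length of 1205 bp and quartiles of 831 and 1841 bp, against a median of 1888 bp and quartiles of 1163 and 3071 bp for genes that did not follow in either direction. Of the 1209 followers 795, or 65.8%, carried only a CG number as their symbol, against 33.2% of the genes that did not follow. Protein-coding genes made up 94.7% of the followers and 93.1% of the others.

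By chromosome arm, in the Ensembl annotation of the BDGP6 assembly, followers made up 14.3% of tested genes on 2L, 10.4% on 2R, 11.1% on 3L, 9.87% on 3R and 10.8% on X. None of the 80 tested genes on chromosome 4 followed, and 2 of 3 on the Y did. The share on X thus stood close to the 10.9% over all genes, and the highest share among the large arms was that of 2L, with 276 of 1936 genes.

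**Figure D3:**
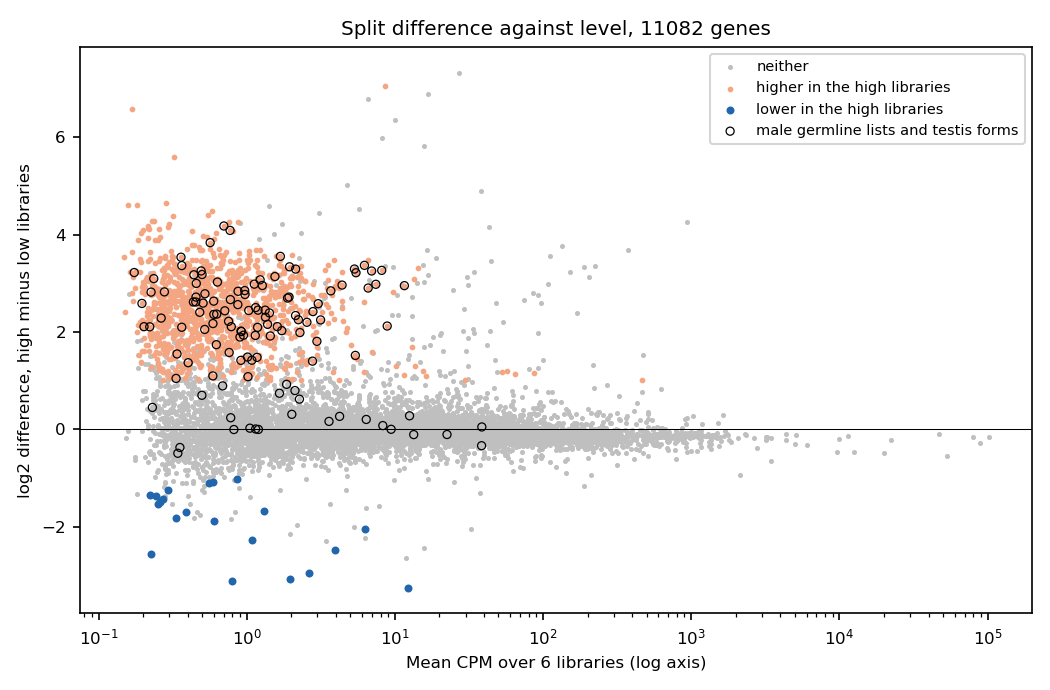
Fitted log2 difference, high minus low libraries, against the mean CPM over 6 libraries (log axis) for 11082 genes. The 1209 higher followers (orange) crowd below 5 CPM, where 1176 of them lie, and open circles mark the male germline lists and testis forms. Grey points at large differences are genes whose libraries overlap.

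Among the 3 high libraries the make-up of the male germline transcripts was not the same. Ratios to control replicate 2 were taken on the log2(CPM + 0.1) scale for the followers of each list, as a description of single libraries. Over all 1209 followers the median ratio was -0.39 in AKH replicate 1 and -0.02 in AKH replicate 2, and 930 of the 1209 were below control replicate 2 in AKH replicate 1. The 9 arrest regulators had median ratios of 0.76 in AKH replicate 1 and 1.26 in AKH replicate 2, and 8 of the 9 were above control replicate 2 in both. The 37 spermatocyte and sperm genes had median ratios of -0.45 in AKH replicate 1 and -0.02 in AKH replicate 2, and 35 of the 37 were below control replicate 2 in AKH replicate 1, so that their medians lay close to those of all followers. The 9 cup and comet genes had median ratios of -0.62 and -0.35, and 8 of them were below control replicate 2 in both. The testis proteasome forms, at 0.04 and 0.50, the respiratory forms, at -0.28 and -0.01, and the axonemal genes, at -0.28 and 0.20, lay between. Regulators of the spermatocyte programme thus stood relatively higher in the 2 AKH libraries, and the cup and comet genes relatively higher in control replicate 2. These ratios were not tested.

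Early germline genes that did not reach the threshold gave like values. The gene aub had 2.04, 4.07 and 0.895 CPM in AKH replicate 1, AKH replicate 2 and control replicate 2, and zpg, a germline gap junction gene, had 0.334, 0.603 and 0.0309 CPM. With 2 AKH libraries and 1 control library in the high set, a difference between genotypes and a difference between single libraries cannot be told apart here.

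**Figure D4:**
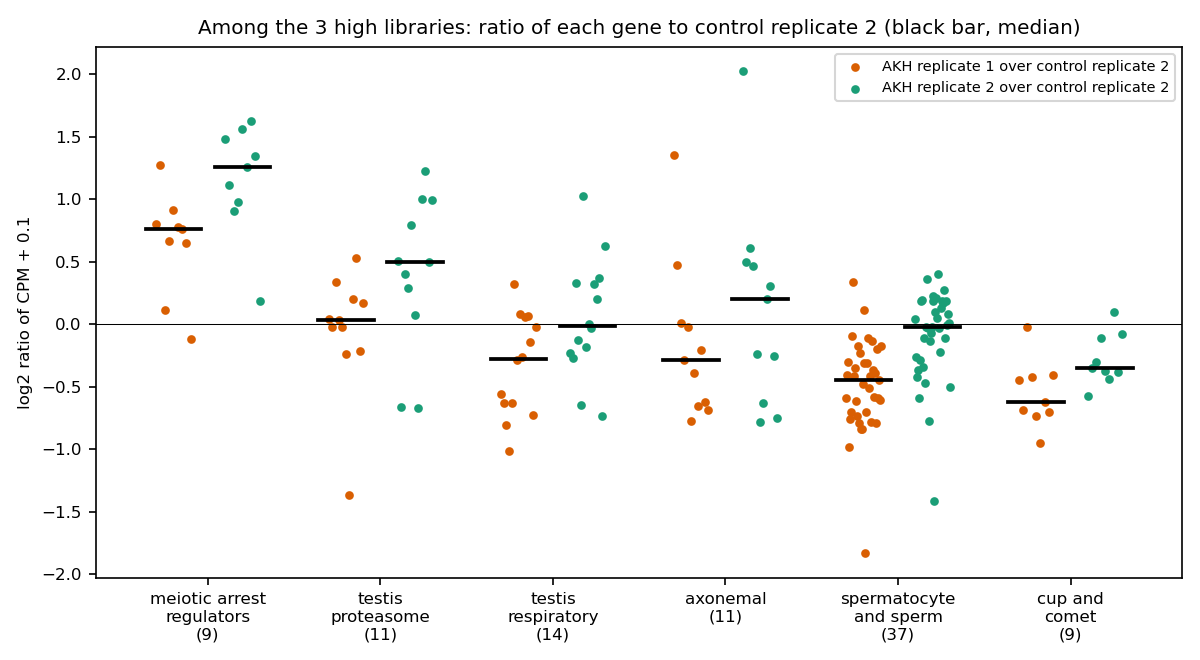
Log2 ratio of each follower to control replicate 2, on the CPM + 0.1 scale, in AKH replicate 1 (orange) and AKH replicate 2 (green), by list, with the number of genes in brackets and black bars for medians. The medians run from 0.76 and 1.26 for the arrest regulators to -0.62 and -0.35 for the cup and comet genes.

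The low libraries were not without male germline transcripts. Summed over the 37 spermatocyte and sperm followers, AKH replicate 3 held 12.6%, control replicate 1 16.6% and control replicate 3 17.3% of the mean of the high libraries. For the cup and comet followers the shares were 9.66%, 19.3% and 15.5%. For the 9 arrest regulators they were 25.1%, 22.3% and 35.6%, and over all 1209 followers 27.9%, 29.6% and 31.4%. The sum over all followers does not measure male germline transcripts alone. CG2444, outside the male germline lists, made up 330.7 of its 853.3 CPM in AKH replicate 3 and 912.9 of its 2927 CPM in AKH replicate 1. AKH replicate 3 was the lowest of the low libraries for the spermatocyte and sperm genes, as for the marker, and control replicate 3 was the highest for the arrest regulators.

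Midgut and ecdysone response genes varied widely between the libraries. Of the 26 tested midgut genes 2 followed the division, Jon44E and Jon99Ciii, both lower in the high libraries, and the list median was -0.15. The 30 midgut genes of the list, tested or not and mostly digestive proteases, summed to 118.9, 839.4 and 4732 CPM in the high libraries. In the low ones they summed to 109.1, 3228 and 1672 CPM. Their order ran with genotype in part, since the 3 control libraries were the 3 highest. Ecdysone response genes mark the rising steroid hormone titre at the end of the larval stage. None of the 17 tested followed the division, but their median log2 difference was 0.51 and 15 of the 17 differences were positive. The sums over all 18 listed genes were 584.1, 596.7 and 995.9 CPM in the high libraries and 495.4, 677.5 and 484.0 CPM in the low ones. Of the 17 tested genes 11 were highest in control replicate 2.

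The nuclear receptor gene Hr4 had 2.22, 3.62 and 62.4 CPM in the high libraries and 1.54, 6.71 and 1.86 CPM in the low ones. The ecdysone-inducible gene ImpE2 had 69.9, 77.8 and 253.4 CPM in the high libraries and 31.1, 139.8 and 26.8 CPM in the low ones. Control replicate 2 was highest for both, and control replicate 1 was second. Of the genes whose fitted difference was at least 1 but whose libraries overlapped, 134 of 325 had over 2 times as much in control replicate 2 as in any other library. The part of developmental stage or of gut tissue in the division was not tested.

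**Figure D5:**
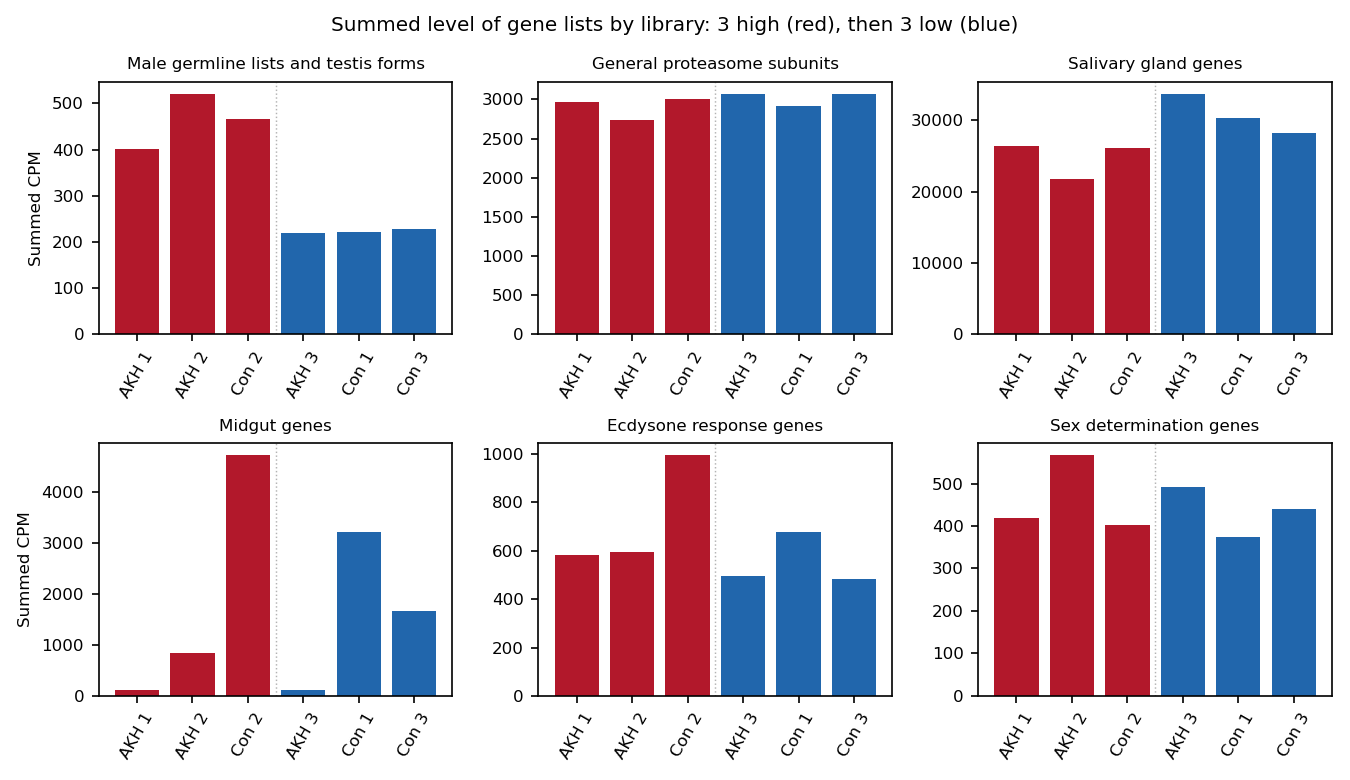
Summed CPM (linear axes from 0) of 6 gene lists in each library, the 3 high libraries in red and then the 3 low in blue. Male germline lists and testis forms sum to 400.1 to 521.1 CPM in the high and 220.2 to 227.8 CPM in the low libraries, whereas the midgut sums run from 109.1 to 4732 CPM and overlap between high and low libraries.

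Genotype was not used to choose the libraries, and so its effect on single genes could be tested. The summed level of the male germline lists averaged 350.4 ± 131.1 CPM in AKH libraries and 286.3 ± 122.4 CPM in control libraries (SD, n = 3 each). The log2 difference was 0.30. Levels of these transcripts served to choose the high libraries, which were known to cross the genotypes, so this difference is given without a test. With the division as a covariate, 598 of the 11082 genes, or 5.40%, were called for AKH against control at an adjusted p under 0.05 in edgeR's quasi-likelihood test, 263 higher and 335 lower. Without the covariate 388 genes were called, and 369 genes were called in both fits. The biological coefficient of variation was 0.201 with the covariate and 0.318 without it. The division was chosen on these counts, which the p-values of the first fit do not take into account. Leaving out any 1 library gave between 29 and 461 higher and between 28 and 461 lower genes. The fewest were called without control replicate 2, with 29 higher and 28 lower, and without AKH replicate 3, with 55 and 121. Control replicate 2 is the only high control library and AKH replicate 3 the only low AKH library. Without either, the genotypes are compared on a single side of the division, so the drop does not mark these libraries as unusual.

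The rule that chose the followers favours genes whose levels overlap between genotypes, so the number of them called for genotype is given as a description. Of the 1209 followers 1 was called with the covariate and none without it, in edgeR's quasi-likelihood test, and 77 and 5 had an unadjusted p under 0.05 in the same fits. The called gene was CG3829, which had 82.8, 91.8 and 36.9 CPM in AKH replicates 1 to 3, against 82.0, 156.8 and 68.4 CPM in control replicates 1 to 3. The levels of betaTub85D served to choose the high libraries, so its genotype values carry no test here. Its fitted log2 difference for AKH was -0.47 ± 0.247 (SE) with the covariate and 0.43 without it, and its sign thus depended on the covariate.

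Of the 93 tested genes of the male germline lists 2 were called for AKH with the covariate, where 5.40% of all tested genes were called. Levels of testis transcripts served to choose the high libraries, so the p-values of these 2 list members are given as a description. The Myb-MuvB subunit gene mip40 averaged 17.0 CPM in AKH and 28.0 CPM in control libraries, with a log2 difference of -0.68 and an adjusted p of 0.0129. Sdic4, a copy of the Sdic cluster of sperm dynein intermediate chain genes, had 2 counts over the AKH and 60 counts over the control libraries, which is 0.0319 of the control level (95% exact interval from counting error 0.00378 to 0.120), with an adjusted p of 0.0182. Neither followed the division. Both calls were lost without control replicate 2, the only high control library, with adjusted p of 0.186 for mip40 and 0.103 for Sdic4 in edgeR's quasi-likelihood test. The AKH receptor gene AkhR averaged 39.8 ± 2.33 CPM in AKH libraries and 142.2 ± 27.0 CPM in control libraries (SD, n = 3 each), with a log2 difference of -1.78 and an adjusted p of 0.00362 in the same test, which was 0.0697 without control replicate 2. It had 41.0 and 37.1 against 125.2 CPM within the high libraries and 41.2 against 128.0 and 173.3 CPM within the low libraries, AKH before control, and did not overlap on either side of the division.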

How the data were processed

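Libraries were made with the Illumina TruSeq RNA kit from 1 ug of total RNA, per the labels. The authors deposited raw counts per gene and, in a second table, RPKM values (counts scaled by library total and gene length). The submitters' processing notes list Bowtie2 2.0.6, TopHat2 2.0.9, HTSeq 0.5.4p3, DESeq 1.10.1 and the build BDGP5. The strand setting is not stated there. Counts were filtered with filterByExpr, scaled by TMM and fitted with edgeR 4.0.16 (R 4.3.3), with genotype and the division into high and low libraries as terms, and p-values were adjusted by Benjamini-Hochberg over all 11082 genes. The deposited RPKM values served for levels compared between genes and, in limma 3.58.1, for alternatives. The fits were tested on simulated data. Symbols were found for 15003 of 15681 FlyBase identifiers, and 404 of the 453 names in 24 gene lists were found. The libraries, the lists and the rules were chosen with earlier results of these data known. Named genes were the marker, the 10 largest differences in each direction among followers of at least 5 CPM, up to 4 most abundant members of each list, for the male germline lists also up to 4 with the largest differences, and up to 5 called for AKH. Other genes were chosen after their values were seen. They were exceptions, list examples, fest, blanks, the followers at 20 CPM or more and the 7 led by control replicate 2. Promoter sequences were not used here.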

Additional observations from a re-analysis of the deposited data

How the results depend on the processing

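The count of genes higher in the high libraries was 312 with log2(RPKM + 1) in place of counts, and stayed within 1.5 times of 1209 under every other alternative run, with 1098 to 1343 when 1 library was left out. The count of lower genes was 11 with library totals as the scale, 114 without the filter on low counts, 8 at a log2 difference of at least 2, 3 with log2(RPKM + 1), 7 with log2(RPKM + 0.1), and 23 to 104 when 1 library was left out. Under an alternative the split difference changed sign in 0 of 43 named followers and in 52 of 79 other named genes. The rule that picked followers leaves little room for a change of sign, so these counts restate it in part. The list median changed sign in 0 of 8 male germline or testis-form lists and in 9 of 16 other lists. Among the 9 were general proteasome (-0.11 to 0.11) and midgut (-0.17 to 0.55). The libraries were chosen by testis transcripts, so the list counts restate that choice in part too. Scaling by library totals moved the median of all split differences by 0.16, and the RPKM values moved it by 0.13 and 0.16. For AKH against control, 196 genes were lower without the division as covariate, 478 higher and 690 lower with DESeq2, and 29 to 461 higher and 28 to 461 lower when 1 library was left out. The counts moved most without control replicate 2 (29 higher and 28 lower) and without AKH replicate 3 (55 and 121). These are the only high control and the only low AKH library, so without either the genotypes are compared on a single side of the division. Without AKH replicate 1 the counts were 132 and 134. Without control replicate 1 145 genes were higher, without control replicate 3 461, and without AKH replicate 2 162. A replicate block gave 93 higher and 151 lower with the division as covariate. Same-numbered libraries, centred by genotype, correlated at -0.25, 0.52 and 0.45. The libraries numbered 1 lie on opposite sides of the division, and those numbered 2 and 3 on the same side. The correlations thus cannot speak for or against pairing, and the numbers were not taken to pair the libraries. For betaTub85D the AKH difference turned to 0.43 without the covariate and to 0.49 with the block and no covariate. The call of mip40 was also lost with the block (adjusted p 0.0547) and without AKH replicate 3 (0.114), that of Sdic4 with the block (0.116) and without AKH replicate 1 (0.0606) or 3 (0.086), and that of AkhR without control replicate 2 (0.0697). The cause was not tested. At this depth 3 counts are about 0.1 CPM, which limits most Y-linked and post-meiotic genes.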
